A study of Drosophila melanogaster with 24 samples.

Results

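The array held 86 probes that were brightest in embryos of the fruit fly Drosophila melanogaster, out of 22575 probes in all, which is 0.381%. A probe is 1 spot of the array, and it is called here by its number in spot order. A probe was taken when its mean log2 signal over the embryo samples exceeded the highest of the other 5 group means by at least 1 log2 unit, and this excess is called its margin. The probes were chosen by these embryo levels and margins, which are therefore given as a description and without a test. The same rule found 198 probes for male heads, 180 for male abdomens, 3 for male pupae, and 0 each for female pupae and mixed-sex pupae.

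All samples came from the isogenic line WI89, and there were 24 samples in 6 groups of 4. The embryos were of both sexes and of mixed stages, from plates on which flies had laid eggs for 24 h. Female pupae and male pupae were taken as white prepupae 0 to 1 h after the pupal case formed, and ageing at 25 °C went on for a further 12 h. Equal mixtures of female and male pupal RNA made the mixed-sex pupae, so they hold no further kind of animal. Male heads and male abdomens were dissected from adults 24 to 48 h old. No adult female tissue and no larval stage was among these samples, so "embryos only" means brightest among these 6 groups.

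A fly embryo starts with RNA that the mother placed in the egg. This maternal RNA is degraded in the first hours while the embryo's own genome is switched on. The embryo then patterns its body axes and forms the larval tissues, each step with its own transcripts. Eggs laid over a day hold all these phases together, so a high level in these samples does not tell at which age a transcript was present. Nor does it tell in which cells: in whole embryos or tissues, fewer cells of a type and less RNA per cell cannot be told apart. The tables used here tie no spot to a gene or to a sequence, so no gene is named and several probes may belong to 1 gene. A changed transcript level was not separated from changed splicing, which the title of the series is about.

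Samples were labelled with Cy5 or Cy3, 2 of each dye in each group, and each array carried 1 sample of each dye. Embryo replicates 1 and 2 were Cy5 samples and replicates 3 and 4 were Cy3 samples. The median signal over local background of all probes was 20.7 and 6.77 scanner units in the Cy5 embryo samples, against 144 and 121 in the Cy3 embryo samples. Dim Cy5 samples were not particular to embryos. This median was 6.26 and 5.19 in male heads replicates 1 and 3, and 8.24 in male abdomens replicate 2, all Cy5 samples. The labels do not say whether the 4 samples of a group came from separate animals or cultures, so every p-value rests on the spread among the deposited samples alone, and that spread may be technical. Precision is limited by how few arrays there were. Each embryo sample shared its array with a sample of another group: embryo replicate 1 with female pupae replicate 1, replicate 2 with male heads replicate 4, replicate 3 with mixed-sex pupae replicate 2, and replicate 4 with male pupae replicate 2. Counts of probes called between groups are given with and without these 4 partner samples.

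Nearly every spot of the array passed the detection level, so passing it does not set these probes apart. All 86 did in every sample except 3 Cy5 samples of adults: 71 in male heads replicate 1 (74.0% of all probes), 73 in male heads replicate 3 (80.1%) and 80 in male abdomens replicate 2 (89.1%). In the other samples 86.3% to 100% of all probes passed. At 7 of the 86 probes, spots with a quality mark were left out in at least 1 sample, and 79 had a value in all 24 samples.

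The median log2 signal of the 86 probes was 8.27, 7.95, 8.40 and 8.38 in the 4 embryo samples, which is 8.25 ± 0.21 (SD of the sample medians, n = 4). Female pupae had medians of 6.62 to 6.79 (6.67 ± 0.08), male pupae of 6.48 to 6.64 (6.56 ± 0.07), and mixed-sex pupae of 6.54 to 6.80 (6.63 ± 0.12). Male heads had 6.43 to 6.70 (6.52 ± 0.13) and male abdomens 6.51 to 6.69 (6.60 ± 0.08), while the median of all probes was 6.21 in each group. Every embryo sample thus lay above every other sample in this median, and the highest sample outside embryos was mixed-sex pupae replicate 2, which shared an array with embryo replicate 3.

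Most margins were small. Of the 86 probes, 63 had a margin under 1.5, 16 had one from 1.5 to 2, and 7 had one of at least 2, with a median of 1.26 and a highest value of 2.93. Embryo means ran from 6.98 to 10.47. The highest mean among the other groups ran from 5.91 to 9.16. At 77 of the 86 probes the lowest embryo sample lay above the highest of the other 20 samples, as it did at 558 or 2.47% of all probes. The rule used these values, so nothing is read from that share. With the 4 partner samples left out, the count was 81 of the 86. Leaving out other samples can only raise such a count, and no share of all probes is set beside it, so nothing is read from it either.

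The widest margin was at probe 14901. Its log2 signal was 10.18, 10.06, 10.63 and 10.73 in the embryo samples. In the pupae it was 8.11, 6.88, 6.99 and 7.81 (female), 6.44, 8.29, 7.63 and 7.53 (male), and 7.61, 8.35, 6.75 and 6.82 (mixed-sex). In the adult male parts it was 6.52, 6.96, 7.03 and 8.13 (heads) and 6.56, 6.96, 6.47 and 6.32 (abdomens). All embryo samples lay far above all others. In each of the 3 pupal groups and in the heads, the highest value was that of the sample that shared an array with embryos. The embryo mean of 10.40 ± 0.33 was 7.60-fold the next highest mean, 7.47 ± 0.77 in male pupae (SD, n = 4 each). The margin was 2.93, and 3.17 without the 4 partner samples.

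Probe 7041 had 9.59, 9.60, 8.31 and 8.43 in embryos. The other 20 samples ran from 5.89 to 7.04 with a median of 6.11. The embryo samples did not overlap the others, and on this normalized scale the Cy5 pair was brighter than the Cy3 pair. The highest values outside embryos, 7.04 in female pupae replicate 1 and 7.03 in male heads replicate 4, again belonged to samples on embryo arrays. Its margin was 2.65 over the female pupae (8.98 ± 0.71 against 6.34 ± 0.47, SD, n = 4 each).

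Probe 15629 showed the opposite order of the embryo pairs, with 7.50 and 7.31 in the Cy5 samples and 9.48 and 9.41 in the Cy3 samples. Its other samples ran from 5.95 to 6.71 with a median of 6.12. The embryo samples stayed clear of them in both pairs, and the margin was 2.17.

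Probe 5416 had 9.80, 9.57, 9.07 and 8.89 in embryos, and between 6.79 and 7.30 (median 7.0) in the other samples. Probe 11239 had 8.92, 8.45, 7.42 and 7.76 in embryos, and between 5.77 and 6.12 (median 5.93) elsewhere. Neither overlapped. The margins were 2.14 at probe 5416 and 2.13 at probe 11239.

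Probe 10597 had 9.10, 9.70, 8.46 and 8.85 in embryos and 6.26 to 7.37 (median 6.81) in the other samples, with a margin of 2.04 over male heads. Probe 7894 had 7.76, 8.60, 9.87 and 9.97 in embryos and 6.42 to 7.59 (median 6.77) elsewhere, with a margin of 2.02 over mixed-sex pupae. Its lowest embryo sample lay only 0.17 above the highest other sample. Both probes kept all embryo samples above all others.

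Probe 10752 had 8.91, 8.78, 8.0 and 7.98 in embryos and 5.80 to 7.43 (median 6.22) in the other samples, with a margin of 1.95. Probe 22349 had 9.58, 9.43, 9.0 and 8.65 in embryos and 6.77 to 7.46 (median 7.04) elsewhere, with a margin of 1.95. Probe 3741 had 8.74, 8.26, 7.69 and 7.93 in embryos and 5.74 to 6.80 (median 6.20) elsewhere, with a margin of 1.75. None of these overlapped, and at each of them the Cy5 embryo pair was the brighter after quantile normalization. Before it, the signal over local background at each of them was higher in the Cy3 embryo samples, which were also the brighter ones over all probes.

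Signals of different probes on an array are not on 1 scale, so each probe is read only across samples. Probe 16122 had 10.55, 10.36, 10.73 and 10.25 in embryos and 8.21 to 9.42 (median 9.01) in the other samples. Probe 14414 had 10.01, 10.09 and 10.24 in the 3 embryo samples with a usable spot and up to 9.55 elsewhere, and probe 12278 had 10.08, 10.14, 10.18 and 9.94 in embryos and up to 9.50 elsewhere. At probes 16122 and 12278 all embryo samples lay above all others. Probe 18161 had 6.74, 6.43, 7.72 and 7.87 in embryos and 5.70 to 6.02 in the others. At probe 1111 embryo replicate 2 read 6.14, against 7.79, 7.70 and 7.75 in the other embryo samples, and it lay 0.07 above the highest other sample. That reading was below the median of all probes in the same sample, 6.21. Its signal over local background was 5.88 scanner units, against a median of 6.77.

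The margin of 1 cut through a continuous range. Just inside it were probes 10531 (1.0046), 16241 (1.0065) and 3878 (1.0066). Just outside were probes 6009 (0.9956), 10896 (0.987) and 12109 (0.9857). At probe 10896 a single head sample set the outcome: male heads replicate 1 read 8.72, against 6.98 to 7.14 in the other heads, and without it the margin was 1.10. Leaving out any 1 of the 24 samples gave between 79 and 93 probes. The list itself changed as well: without embryo replicate 1, 2, 3 or 4 it held 73, 77, 72 or 70 of the 86.

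The group next below embryos was most often female pupae, at 40 of the 86 probes, then male abdomens at 17, male pupae at 13, male heads at 10 and mixed-sex pupae at 6. Without the 4 partner samples these counts were 33, 23, 9, 9 and 12. The lowest group was male abdomens at 38 probes, male heads at 29, male pupae and mixed-sex pupae at 8 each, and female pupae at 3. Each of the other groups was thus next to embryos for some of the probes. Mixed-sex pupae were mixed from the RNA of the other pupal groups, so their ranks are not free of those groups. No share of all probes is set beside these counts, so nothing further is read from them. The widest margins were over female pupae at probe 7041, male pupae at probe 14901, mixed-sex pupae at probe 7894, male heads at probe 10597 and male abdomens at probe 11685.

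The 86 probes were spread over the array. The rows, cut into bands of 35, held 25, 34 and 27 of them, and the columns, cut in a like way, held 29, 27 and 30. No member touched another. The 335 spots around the members had a median embryo margin of -0.08, against -0.10 for all probes, and their highest was 0.75.

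Within embryos the probes did not behave alike: the Cy5 pair and the Cy3 pair of samples differed at many of them. The median size of the difference between the pairs was 0.69 log2 units, while the median difference between the 2 samples of a pair was 0.25 for Cy5 and 0.14 for Cy3. The Cy3 pair was brighter by at least 1 unit at 23 probes and the Cy5 pair at 5. The pairs did not overlap at 78.8% of the members with all embryo values, against 56.9% of all probes. These are the embryo values that chose the probes, and a probe could enter through 1 bright pair, so the split is a description. In embryos, dye, replicate pair and brightness of the sample cannot be told apart.

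The largest split was at probe 2943, with 8.12 and 7.78 in the Cy5 embryo samples and 10.58 and 10.47 in the Cy3 embryo samples. In its other samples the signal ran from 6.87 to 8.29 (median 7.08). The Cy3 embryo samples were far above all others, while the Cy5 embryo samples overlapped them: mixed-sex pupae replicate 2, on the array of embryo replicate 3, read 8.29, and male pupae replicate 2, on that of embryo replicate 4, read 8.0. The means of the pairs were 7.95 in Cy5 and 10.53 in Cy3 embryos. Its margin within the dyes was 0.15 in Cy5 and 3.21 in Cy3 samples. Probe 19984 followed the same order, with 8.17 and 8.02 in the Cy5 and 10.41 and 10.18 in the Cy3 embryo samples and a highest other sample of 8.45, again mixed-sex pupae replicate 2. Its margins were 0.23 in Cy5 and 2.98 in Cy3 samples. The steadiest probes were 11142, with 7.73, 7.78, 7.75 and 7.68, and 10824, with 9.60, 9.41, 9.51 and 9.49, so for these the 4 embryo samples were nearly equal in both dyes.

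The dye difference in embryos, less that in the other groups, was also taken from 1 model per probe over all 24 samples (limma, Benjamini-Hochberg adjusted p at 0.05), added after the data were seen. Because the model holds the embryo values that chose the probes, its counts for the 86 are a description, and nothing is read from their share. The threshold was passed at 43 of the 86 probes (50%), and at 799 or 3.54% of all probes. Of the 43, the Cy5 embryo pair was the higher at 18 (2.22% of all probes). The Cy3 pair was the higher at 25 (1.32% of all probes). Taken between the embryo pairs alone, the median Cy5 minus Cy3 difference was 0.78 at the 18 and -1.66 at the 25. Of the probes with an embryo mean at least as high as the lowest of the 86, 8.98% passed. The difference from the model, less that in the other groups, was -2.59 (SE 0.29) at probe 2943 and -2.20 (SE 0.17) at probe 15629, both toward Cy3. At probe 11239 it was 1.06 (SE 0.14) toward Cy5.

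The count and the direction depended on the processing, and the calls over all probes moved too. With each sample scaled to its 75th percentile in place of quantile normalization, 26 of the 86 passed, 0 toward Cy5 and 26 toward Cy3, and 239 of all probes did. This scaling moved the median of all probes for this dye difference, Cy5 minus Cy3, to 0.17, against -0.02. With plain background subtraction 28 passed, and 481 of all probes. With an offset of 10 it was 28, and 446 of all probes, and in both settings 6 of the 28 were toward Cy5 and 22 toward Cy3. With each array as a fixed term 0 passed and 37 had an unadjusted p under 0.05, while over all probes 1 passed and 1998 had such a p, in a fit with 5 residual degrees of freedom against 16. Without the 4 partner samples, 44 passed, and 597 of all probes.

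The same model in the other groups called 46 probes (0.204%) for male heads, 4 (0.0177%) for female pupae, 1 (0.00443%) for mixed-sex pupae, and 0 for male pupae and for male abdomens. Of the 198 probes brightest in male heads only, 4 passed for male heads, and of the 180 brightest in male abdomens only, 0 passed for male abdomens. These sets were chosen from the values of their own group in the same way. The counts were not tested against each other.

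The split carried over into which probes met the rule. Taken within each dye, the margin was at least 1 in both dyes at 31 of the 86 probes, in Cy5 samples only at 26, in Cy3 samples only at 28, and in neither at 1. The median margin was 1.39 in Cy5 samples and 1.21 in Cy3 samples.

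The rule was therefore also applied to 1 dye at a time and read in the samples of the other dye, which the choice had not used. Each set of 12 samples was normalized alone, with 2 samples per group. In Cy3 samples 144 probes met the rule, 70 of them among the 86. In the Cy5 samples, 92 of these 144 (63.9%) were higher in embryos than the mean of the other groups (limma, adjusted p at 0.05), against 8.47% of all probes, and 0 were lower, against 5.39%. This test asks less than the rule, which sets embryos against the highest of the other groups. All probes were not matched to the chosen ones in level, and the counts are of the chosen probes, not of the 86. Embryos were the brightest group at 109 of the 144, against 21.4% of all probes, and 35 again had a margin of at least 1. With 75th-percentile scaling the count called higher was 48 of 113, given without the share of all probes in that setting. Without embryo replicate 1 only 1 Cy5 embryo sample is left, so that setting is not read. With all samples and quantile normalization, the margin fell to a median of 0.38 in the Cy5 samples. It was 1.31 in the Cy3 samples in which the probes were chosen. Read in Cy5, its lowest value was -1.37 and its highest 2.84.

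In the other direction 73 probes met the rule in Cy5 samples, 50 of them among the 86. In the Cy3 samples, 70 of the 73 (95.9%) were higher in embryos by the same test, against 6.92% of all probes, and 0 were lower, against 8.57%. Embryos were the brightest group at 70 of the 73, against 29.2% of all probes, and 35 had a margin of at least 1, with a median of 0.99 and a range from -0.41 to 3.35. With all samples and quantile normalization, embryos were thus the brightest group in the other dye at most of the chosen probes, with a smaller median margin. The probes were chosen by a wide margin in 1 dye, so nothing is read from the smaller margin in the other. Of the probes chosen in Cy3 samples, under 50% were called in Cy5 samples with the percentile scaling named above. The 2 directions were not tested against each other. Samples of both dyes shared arrays, and with embryo replicate 2 left out the Cy5 choice had 144 probes, of which 103 passed in Cy3 samples.

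The samples on embryo arrays read slightly higher at the embryo-only probes than the other samples of their groups. The partner was the highest of its 4 samples at 42 of 86 probes in female pupae (48.8%, against 21.3% of all probes) and at 44 of 85 in male heads (51.8%, against 25.4%). It was the highest at 28 of 86 in mixed-sex pupae (32.6%, against 22.1%) and at 27 of 86 in male pupae (31.4%, against 20.6%). The median excess over the other 3 samples was 0.08 in female pupae, 0.15 in male heads, 0.04 in mixed-sex pupae and 0.05 in male pupae.

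In a fit without the embryo samples and with a term for these 4 partners, added after the data were seen, the partners exceeded the others by a median of 0.08 at the 86 probes, against -0.004 at all probes. The excess was positive at 77.9% of the 86 and at 47.8% of all probes. By limma 0 of the 86 and 0 of all probes passed the adjusted p of 0.05. An unadjusted p under 0.05 with a positive sign was found at 16 of the 86 (18.6%) and at 343 or 1.52% of all probes. The largest excess was 1.19 (SE 0.20, limma adjusted p = 0.187) at probe 14901, then 0.73 (SE 0.12, limma adjusted p = 0.187) at probe 10752. At probe 10752 the 2 highest values outside embryos were 7.43 in female pupae replicate 1 and 6.90 in male heads replicate 4, both below the lowest embryo sample at 7.98. The part of the array in these values was not tested further. The partners belong to the other 5 groups, so a higher partner narrows a margin: without the 4, 87 probes met the rule, 83 of them among the 86.

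Differences among the groups other than embryos were read at the 86 probes from a fit of all probes (limma, Benjamini-Hochberg adjusted p at 0.05 over all probes). The rule did not set these differences directly, but it held each of the groups at least 1 unit below embryos, and the highest of them set the margin, so they are not fully independent of the choice. In each comparison the share of the 86 probes called is given beside the share of all probes called. The fit held 1 spread per probe over all 24 samples, embryos among them. At the 86 probes the median SD was 0.47 in embryos, against 0.13 to 0.18 in the other groups. This can widen the SE of these comparisons, so a lower share at the 86 is not read as fewer differences. Where a count in another setting has no share of all probes beside it, it is not read as a change at these probes alone.

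Female and male pupae differed at 4 of the 86 probes (4.65%), against 6.49% of all probes, with 2 higher (1.2% of all probes) and 2 lower (5.28%) in females. Probe 8972 had 6.58, 6.53, 6.43 and 6.30 in female pupae, against 7.25, 7.44, 7.07 and 7.28 in male pupae. The sexes did not overlap, mixed-sex pupae lay from 6.85 to 7.08, and all groups were below the embryo samples (8.51, 8.37, 8.01 and 8.19). It changed by -0.85 (SE 0.12, limma adjusted p = 5.57e-05). Male pupae were also the group that set its margin of 1.01. Lower in female pupae too, probe 677 fell by 0.42 (SE 0.12, limma adjusted p = 0.0392), but this call was lost on leaving out any 1 of 13 samples, among them all 4 of female pupae and male pupae replicates 1, 2 and 3. It was lost as well with 75th-percentile scaling, no array block, no dye term or the pupal sexes fitted alone, and without the 4 partner samples (adjusted p up to 0.49).

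Probe 17105 had 7.98, 8.63, 8.0 and 8.13 in female pupae, against 7.43, 7.63, 7.49 and 7.78 in male pupae, without overlap. It changed by 0.54 (SE 0.11, limma adjusted p = 0.00156). It did not pass with 75th-percentile scaling, with the array as a fixed block, without a dye term or with the pupal sexes fitted alone, where adjusted p reached 0.20. Probe 16 changed by 0.47 (SE 0.13, limma adjusted p = 0.029), with 7.85, 8.45, 7.75 and 7.72 in females and 7.28, 7.68, 7.31 and 7.50 in males. Leaving out female pupae replicate 2 or 3, male pupae replicate 1, 3 or 4, or mixed-sex pupae replicate 4 ended that call. So did 75th-percentile scaling, no array block, the array as a fixed block, no dye term, the pupal sexes fitted alone and leaving out the 4 partner samples, with adjusted p up to 0.313. Counts in this comparison were 2 without female pupae replicate 2, female pupae replicate 3, male pupae replicate 3 or mixed-sex pupae replicate 4. Without the 4 partner samples the count was 2, with 1 higher and 1 lower in females.

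Male heads and male abdomens differed at 18 of the 86 probes (20.9%), against 26.4% of all probes. Of the 18, 4 were higher in heads and 14 in abdomens, while over all probes 12.8% were higher in heads and 13.6% in abdomens. With 75th-percentile scaling the split was 13 and 13, and that scaling moved the median change of all probes to 0.21, against 0.05. Without the 4 partner samples 14 differed, 1 higher in heads and 13 in abdomens. Probe 11685 had 6.14, 6.13, 6.02 and 6.77 in heads, against 7.80, 7.33, 7.84 and 7.43 in abdomens. The tissues did not overlap, and the highest head value was that of replicate 4, on an embryo array. In male heads replicates 1 and 3 the signal of this probe over local background was only 5.63 and 3.54 scanner units. Heads differed by -1.38 (SE 0.15, limma adjusted p = 1.38e-07). Probe 17726 had 6.08, 6.0, 5.79 and 6.18 in heads, against 7.12, 7.13, 7.05 and 7.39 in abdomens, also without overlap, a change of -1.16 (SE 0.16, limma adjusted p = 6.43e-06). Toward heads the changes were small. Probe 10824 had 8.15, 8.55, 8.02 and 8.33 in heads, against 7.85, 7.74, 7.93 and 7.85 in abdomens, without overlap. It changed by 0.46 (SE 0.11, limma adjusted p = 0.00331), and by 0.08 with 75th-percentile scaling (adjusted p = 0.782). Probe 7212 had 6.26, 6.52, 6.32 and 6.43 in heads, against 5.98, 6.15, 5.98 and 6.02 in abdomens. Its change of 0.41 (SE 0.13, limma adjusted p = 0.0215) did not pass when male heads replicate 1 or 4 or male abdomens replicate 1 or 3 was left out, without the 4 partner samples, with no array block or with no dye term (adjusted p up to 0.149).

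Adult male parts were also set against male pupae. Both comparisons use the same male pupae, so their values are given side by side and no overlap is counted. Between male heads and male pupae 19 of the 86 probes differed (22.1%), against 22.2% of all probes, 5 of them higher (10.7% of all probes) and 14 lower (11.5%) in heads. Without the 4 partner samples 16 differed, 5 higher and 11 lower. With 75th-percentile scaling 15 were higher and 9 lower, and the median of all probes moved to 0.21, against 0.005. Between male abdomens and male pupae 17 of the 86 differed (19.8%), against 19.5% of all probes, 9 higher (12.5% of all probes) and 8 lower (6.99%) in abdomens. Without the 4 partner samples 13 differed, 8 higher and 5 lower. This count was 7 without male abdomens replicate 4, 10 without male pupae replicate 3, and 11 without male pupae replicate 1 or male abdomens replicate 1. With 75th-percentile scaling 8 were higher and 2 lower.

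Probe 7800 was higher in both adult parts than in male pupae, and male heads set its margin of 1.19. Its signal was 6.99, 7.65, 7.21 and 7.85 in heads and 7.59, 7.15, 7.44 and 7.32 in abdomens, against 6.0, 5.98, 5.76 and 5.83 in male pupae. Both adult parts were above all pupal samples, and embryos, at 8.07, 7.65, 9.38 and 9.34, overlapped the heads in replicate 2. The change was 1.73 (SE 0.21, limma adjusted p = 1.38e-06) in heads and 1.56 (SE 0.20, limma adjusted p = 3.77e-06) in abdomens. Probe 18574 rose by a smaller amount, with 6.31, 6.67, 6.47 and 6.59 in heads and 6.91, 6.62, 6.59 and 6.80 in abdomens, against 5.86, 5.94, 5.85 and 5.94 in male pupae. The changes were 0.69 (SE 0.09, limma adjusted p = 4.12e-06) in heads and 0.85 (SE 0.09, limma adjusted p = 1.62e-07) in abdomens, and neither part overlapped the pupae.

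In the other direction, probe 6035 had 6.47, 6.22, 6.22 and 6.56 in heads and 6.58, 6.44, 6.73 and 6.51 in abdomens, against 7.32, 7.17, 7.19 and 6.88 in male pupae. All 8 adult samples were below all 4 pupal samples. The changes were -0.89 (SE 0.14, limma adjusted p = 2.39e-05) in heads and -0.67 (SE 0.13, limma adjusted p = 0.000443) in abdomens. Probes 11685 and 8972 fell in heads, by 1.10 (SE 0.17, limma adjusted p = 2.22e-05) and 1.02 (SE 0.14, limma adjusted p = 1.11e-05), while in abdomens the changes were 0.28 (limma adjusted p = 0.278) and 0.05 (limma adjusted p = 0.848). At both probes heads were also below abdomens in the direct comparison. Probe 8972 had a usable spot in 3 head and 3 abdomen samples. Its signal over local background was only 3.50 and 5.65 scanner units in male heads replicates 1 and 3. Probes 4216 and 3741 changed in abdomens by 0.99 (SE 0.26, limma adjusted p = 0.00773) and -0.48 (SE 0.13, limma adjusted p = 0.00901), and both calls were lost without male pupae replicate 1 or male abdomens replicate 4 and with no array block (adjusted p 0.137 and 0.104). The call at probe 3741 was lost with 75th-percentile scaling too (adjusted p = 0.212).

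Mixed-sex pupae were set against the mean of female and male pupae. By limma 0 of the 86 probes differed, against 8 or 0.0354% of all probes, and without the 4 partner samples 0 of the 86 and 0 of all probes did. With all samples 1 of the 86 had an unadjusted p under 0.05, against 946 of all probes. The changes at the 86 probes ran from -0.28 to 0.18 with a median of -0.02.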

How the data were processed

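The deposited scanner tables hold, per the file headers, the mean and median signal intensity and local background intensity of every spot for 1 channel of an array. The authors also deposited 1 natural log value per spot and sample. Set against the scanner tables, each natural log value equalled ln(mean signal - mean background) with deviations up to 8.4e-08, and the 1017 empty cells were those with a difference of 0 or less. Which tools came before deposit is not stated.

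Mean signals were corrected for median background by normexp (limma 3.58.1 in R 4.3.3) with an offset of 50, which understates the change of dim probes. Spots with a quality mark above 0, whose meaning is not given, were dropped, and log2 values were quantile normalized over the 24 samples. A spot was detected when it exceeded its local background by 2 SD, taken over all spot backgrounds of that sample. Identical patterns of marked spots gave the 12 arrays of 2 samples. Each probe was fitted over all samples with group means and dye, with the array as a random block (correlation 0.49), an intensity trend and Benjamini-Hochberg adjustment at 0.05.

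Probes were named by rank: the widest margins, the extremes of level, embryo spread and dye gap, those at the threshold, and the largest changes per contrast. Members, contrasts and naming rules were chosen with earlier results of these data known. On simulated data with the same noise in every group, the fits recovered the changes put in. That checks the code only, since the simulation did not hold the wider spread of the embryo samples at these probes. The marker lists could not be used, since no spot is tied to a gene. Alternatives were other scaling, background, offset, blocks, thresholds and fewer samples.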

Additional observations from a re-analysis of the deposited data

Results flagged for a closer look

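Of the 86 probes, 43 had a dye difference in embryos that departed from that of the other groups in a model that holds the embryo values by which the probes were chosen, and dye cannot be told apart from replicate pair there.

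Whether 1 of the 4 samples of a group lay far from the rest was asked at the 37 named probes, in each group with 4 values. It was also asked of the median of the 86 probes in each of the 6 groups. In these 222 tests, 20 stood out (9.01%), where chance gives about 5% of such tests. Of these, 3 were samples that share an array with embryos. Female pupae replicate 1 read 7.04 on the log2 scale at probe 7041, with 6.09 to 6.13 in the rest of its group. Male heads replicate 4 read 6.77 at probe 11685 (others 6.02 to 6.14) and 6.89 at probe 6009 (others 6.42 to 6.50).

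In embryos, replicate 2 had 6.14 at probe 1111, against 7.70 to 7.79. In female pupae, replicate 2 had 6.71 at probe 15629 (others 6.07 to 6.15) and 6.33 at probe 10699 (others 5.74 to 5.83). In male pupae, replicate 1 had 6.92 at probe 5416 (others 7.25 to 7.30) and 6.47 at probe 4216 (others 6.95 to 7.04), and replicate 4 had 5.77 at probe 11239 (others 5.93). In mixed-sex pupae, replicate 1 had 6.08 at probe 7041 (others 6.13), replicate 4 had 6.44 at probe 10531 (others 6.27 to 6.28) and replicate 3 had 6.85 at probe 8972 (others 7.06 to 7.08).

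In male heads, replicate 3 had 6.40 at probe 15629 (others 6.13 to 6.17), replicate 2 had 5.70 at probe 10699 (others 5.84 to 5.86), and replicate 1 had 5.87 at probe 1111 (others 5.70 to 5.73) and 8.72 at probe 10896 (others 6.98 to 7.14). In male abdomens, replicate 3 had 5.89 at probe 11239 (others 5.97 to 5.99), replicate 2 had 8.21 at probe 16122 (others 8.62 to 8.68) and 5.72 at probe 1111 (others 5.88 to 5.89), and replicate 4 had 6.12 at probe 10699 (others 5.72 to 5.76).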

How the results depend on the processing

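The number of probes that met the rule was 86, and it was 189 with plain background subtraction, 211 with an offset of 10 and 192 with the deposited natural log values, each list holding all 86. It was 469 at a margin of 0.5, 7 at a margin of 2, and 9 where the lowest embryo sample had to lie 1 above the highest other sample. With 75th-percentile scaling it was 72, of which 68 were among the 86. Leaving out 1 sample gave 79 to 93, and without 1 embryo sample the list held 70 to 77 of the 86. Members called between female and male pupae numbered 4, and 1 with 75th-percentile scaling, 2 with no array block, 2 with arrays fixed, 1 with no dye term, 2 with the pupal sexes alone and 2 without the 4 partner samples, with 2 to 5 on leaving out 1 sample. Between male abdomens and male pupae they numbered 17, and 10 with 75th-percentile scaling, 7 with no array block and 10 with no dye term, with 7 to 20 on leaving out 1 sample. Leaving out 1 sample gave 14 to 21 between heads and abdomens and 14 to 25 between heads and male pupae.

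The dye difference in embryos was called at 43 members, and at 26 with 75th-percentile scaling, 28 with plain subtraction, 28 with an offset of 10, 25 with the deposited values and 0 with arrays fixed, with 29 to 48 on leaving out 1 sample. Probes chosen in Cy3 samples and called in Cy5 samples numbered 92 of 144, and 48 of 113 with 75th-percentile scaling and 145 of 287 with an offset of 10, with 67 to 96 on leaving out 1 sample. Probes chosen in Cy5 samples and called in Cy3 samples numbered 70 of 73, and 110 of 122 with 75th-percentile scaling, 314 of 556 with plain subtraction, 231 of 328 with an offset of 10 and 312 of 571 with the deposited values, with 51 to 103 on leaving out 1 sample. Counts of members and of chosen probes in this section are given without the share of all probes called in the same setting. They do not tell a change at these probes from a change at every probe. In the choices by dye, leaving out 1 sample leaves 1 sample in a group, so those ranges are a description only. The causes were not tested.

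Same-numbered samples of different groups showed no common direction: 11 of 24 pairs correlated over 0.1, from -0.83 to 0.72. This does not settle whether the numbers pair the samples, and the main fit held no replicate term. With a replicate block the members called were 4 between the pupal sexes, 20 between heads and abdomens, 20 between heads and male pupae, 14 between abdomens and male pupae, 0 for mixed-sex pupae and 39 for the dye difference. No named margin and no named change between groups turned its sign, but with 75th-percentile scaling the members called between heads and male pupae were 15 higher and 9 lower, against 5 and 14, and those between heads and abdomens 13 and 13, against 4 and 14. Of 407 alternative margins of 37 named probes, 356 moved by less than the SD of the embryo samples. The detection filter removed no probe. When a sample was left out, the array correlation was held at its value from all samples, and a single embryo sample of a dye was assumed to vary like the other groups.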
